A study of Mus musculus with 2 samples.

Results

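The genes of glutathione, thioredoxin and peroxide defence were described in granulocyte-monocyte progenitors, cells of the bone marrow from which neutrophils and monocytes develop. The set is a list of 42 genes given by symbol, and all 42 matched a row of the gene tables, which hold 69691 rows, 21474 of them protein-coding genes. There was 1 group, from male adult C57BL/6J mice of 5 to 6 weeks, and the labels name no treatment and no genetic change. Total RNA with added spike-ins was sequenced from 2 pools of 100 primary cells each, called replicate 1 and replicate 2 after the labels. Both carry 1 donor identifier with sample identifiers of their own. Whether they came from separate animals is not in the labels, so an SD here is the spread of these pools alone and may be technical. Replicate 1 held 40509954 expected counts and replicate 2 held 35675702. All 8 marker genes of the progenitor, Mpo and Elane among them, were at 1 TPM (transcripts scaled by length to a fixed total per library) or more in both libraries. With no second group there is no contrast, and the values below are levels, their order and their spread.

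Superoxide that leaks from respiration or is made by oxidases is turned into hydrogen peroxide by superoxide dismutases, and the peroxide is then reduced to water by catalase, by peroxiredoxins that are recharged by thioredoxin, and by glutathione peroxidases that use glutathione. Thioredoxin reductase and glutathione reductase restore both carriers with electrons from NADPH. The transcription factor NRF2, held down by KEAP1, drives many of these genes when electrophiles or oxidants appear. Neutrophils and their precursors make myeloperoxidase, which uses hydrogen peroxide, and mature phagocytes make superoxide in bursts.

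Several of these enzymes carry selenocysteine, an amino acid written by TGA, a codon that elsewhere ends translation. The codon and its surroundings are shown for the 5 selenocysteine members because it forms the active site of the glutathione peroxidases and stands next to last in the thioredoxin reductases. Each line runs 5′ to 3′ along the coding strand of the GENCODE M21 transcript, with the selenocysteine codon in capitals.
Gpx1: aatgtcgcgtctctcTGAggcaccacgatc
Gpx3: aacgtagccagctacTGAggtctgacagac
Gpx4: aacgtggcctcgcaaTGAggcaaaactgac
Txnrd1: ctccagtctggctgcTGAggt
Txnrd2: actgtgactggttgcTGAggc
On GRCm38 the codon lies at chr9:108339451-108339453 in Gpx1, where it is codon 47 of 201. It lies at chr11:54907256-54907258 in Gpx3, at chr10:80054737-80054739 in Gpx4, at chr10:82896037-82896039 in Txnrd1 and at chr16:18477772-18477774 in Txnrd2, all on the plus strand. In Txnrd1 it is codon 498 of 499 and in Txnrd2 codon 526 of 527, so only 1 codon follows. In all 5 the base triplet after TGA begins with gg. These 5 genes summed to 1473 TPM in replicate 1 and 1454 TPM in replicate 2, which was 34.4% and 35.4% of the TPM of all 42 members, and most of that was Gpx1.

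Most of the set was expressed. Of the 42 members, 36 were at 1 TPM or more in both libraries, against 45.6% of all protein-coding genes. At 10 TPM or more in both there were 31, against 26.1% of protein-coding genes, and at 100 TPM or more in both there were 13, against 2.71%. The members were chosen with earlier results of these data known. Comparisons of the set with all protein-coding genes are therefore descriptions and no test of it. The members' median was 41.7 TPM in replicate 1 and 40.8 TPM in replicate 2, where the median of all protein-coding genes was 0.45 and 0.51 TPM. Ordered by mean TPM, 17 members stood among the 1000 highest protein-coding genes and 24 among the 2000 highest. The whole set took 4276 TPM in replicate 1 and 4104 TPM in replicate 2, or 0.867% and 0.832% of protein-coding TPM. In RNA of pooled cells, fewer cells that express a gene and less RNA per cell cannot be told apart.

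**Figure D1:**
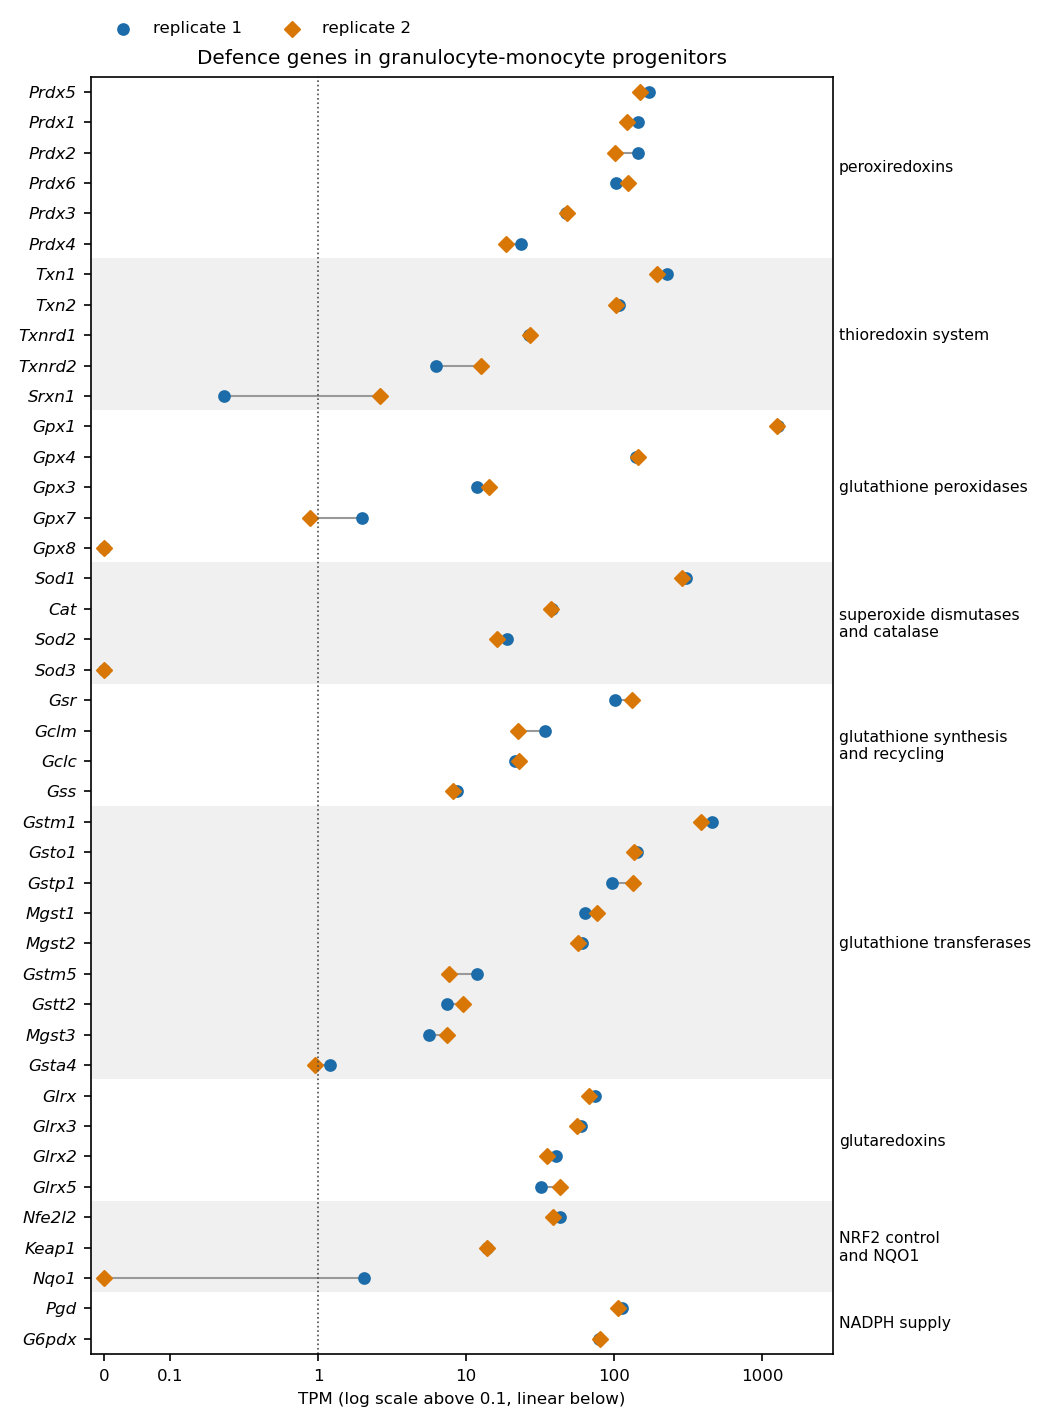
TPM of the 42 members (x axis, log scale above 0.1 and linear below) in replicate 1 (circles) and replicate 2 (diamonds), grouped by family and sorted by mean, with a dotted line at 1 TPM. Gpx1 stands alone above 1000 TPM, Gpx8 and Sod3 are at 0 in both libraries, and Srxn1 and Nqo1 show the widest gaps between the libraries.

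The glutathione peroxidases, which reduce peroxides with glutathione, formed the highest family, and 1 gene made nearly all of it. Gpx1 (ENSMUSG00000063856.7, chr9:108338903-108340343), the cytosolic and mitochondrial enzyme that reduces hydrogen peroxide, had 1287 TPM in replicate 1 and 1255 in replicate 2, resting on 26305 and 23546 expected counts. It ranked 68 among protein-coding genes by mean TPM, highest of the 42 members. Gpx4 (chr10:80047166-80056439), which reduces lipid hydroperoxides in membranes and so blocks ferroptosis, stood at 141 and 144 TPM. Gpx1 was thus 9.13 times Gpx4 in replicate 1 and 8.69 times in replicate 2. Gpx3, the peroxidase secreted into plasma, was far lower, at 11.85 and 14.2 TPM. Gpx7, an enzyme of the endoplasmic reticulum, was close to the detection limit with 1.99 TPM from 66 counts and 0.88 TPM from 26 counts. Gpx8, the other endoplasmic reticulum member, was not detected in either library. A count of 0 allows up to 3 counts, or 0.0741 CPM (counts as a share of the library) in replicate 1 and 0.0841 CPM in replicate 2. Only 2 members, Gpx8 and Sod3, had 0 counts in both, against 42.5% of protein-coding genes. The family summed to 1442 and 1415 TPM, 33.7% and 34.5% of the TPM of the set, and Gpx1 was 89.3% and 88.7% of the family.

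All 6 peroxiredoxins, thiol peroxidases found in different compartments, were at 10 TPM or more in both libraries. Prdx5 (chr19:6906697-6910106), of mitochondria, peroxisomes and cytosol, was the highest with 172 TPM in replicate 1 and 151 TPM in replicate 2. Prdx1 (chr4:116685544-116700822), cytosolic, had 144 and 122 TPM, and Prdx2 (chr8:84969587-84974834), the cytosolic form abundant in red cells, had 145 and 101 TPM. Prdx6 (chr1:161240112-161251219), which is recharged by glutathione and not by thioredoxin, had 103 and 125 TPM. These values overlap, so Prdx1, Prdx2 and Prdx6 have no firm order. Below them lay Prdx3, the mitochondrial form, at 47.25 and 47.9 TPM, and Prdx4, of the endoplasmic reticulum, at 23.5 and 18.6 TPM. Together the peroxiredoxins summed to 635 TPM in replicate 1 and 565 TPM in replicate 2, and the highest of them was only 27.1% and 26.7% of the sum, so the family was spread more evenly than the glutathione peroxidases.

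The thioredoxin system recharges most peroxiredoxins. Txn1 (chr4:57943373-57956411), cytosolic thioredoxin, had 227 TPM in replicate 1 and 195 in replicate 2, and Txn2 (chr15:77915047-77929006), its mitochondrial counterpart, had 108 and 103 TPM. The carriers stood well above their reductases: Txnrd1, the cytosolic thioredoxin reductase, was at 26.5 and 27.0 TPM, so Txn1 was 8.56 and 7.21 times its reductase. Txnrd2, the mitochondrial reductase, had 6.26 TPM from 321 counts in replicate 1 and 12.6 TPM from 428 counts in replicate 2. Srxn1, sulfiredoxin, which repairs overoxidised peroxiredoxins, was low and uneven, with 0.23 TPM from 18 counts in replicate 1 and 2.63 TPM from 142 counts in replicate 2.

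Among superoxide dismutases and catalase, the cytosolic copper and zinc enzyme Sod1 (chr16:90220754-90226329) led with 306 TPM in replicate 1 and 288 TPM in replicate 2. Sod2, the manganese enzyme of the mitochondrial matrix, had 19.0 and 16.3 TPM, so Sod1 was 16.1 and 17.7 times Sod2. Sod3, the extracellular enzyme, had 0 counts in both libraries. Cat (chr2:103453849-103485160), the peroxisomal catalase, was nearly equal in the libraries at 38.0 and 37.4 TPM, and Gpx1 stood 33.9 and 33.6 times above it.

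By place in the cell, the 6 members known for mitochondria (Prdx3, Txn2, Txnrd2, Sod2, Glrx2 and Glrx5) summed to 253 TPM in replicate 1 and 258 TPM in replicate 2, or 5.90% and 6.29% of the TPM of the set. The 3 members of the secretory pathway (Prdx4, Gpx7 and Gpx8) summed to 25.5 and 19.5 TPM. The 2 secreted members (Gpx3 and Sod3) summed to 11.9 and 14.2 TPM, all of it Gpx3. Members also found in mitochondria beside the cytosol, such as Gpx1 and Prdx5, are not in these sums. Glrx2 is counted over all its transcripts. Its leading transcript, with a coding sequence of 369 bases, held 59.8% of its TPM in replicate 1 and 64.8% in replicate 2. A transcript with 468 coding bases held 0% and 2.34%. Which transcripts encode a mitochondrial form was not tested, so the part of Glrx2 that belongs in the mitochondrial sum is not known.

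Glutathione is made from cysteine, glutamate and glycine by glutamate-cysteine ligase and glutathione synthetase, and is returned to its reduced form by glutathione reductase. Gsr (chr8:33652523-33698163), the reductase, was the highest of these 4 genes, with 101 TPM in replicate 1 and 132 TPM in replicate 2. Gclc, the catalytic subunit of the ligase, had 21.3 and 22.8 TPM, and Gclm, its modifier subunit, had 33.9 and 22.3 TPM. Gclm was above Gclc in replicate 1 and level with it in replicate 2, so the subunits have no firm order. In replicate 1, 42.9% of the TPM of Gclm was on the retained-intron Gclm-205, from 131 counts. Protein-coding transcripts held 55.6% of Gclm in replicate 1 and 84.8% in replicate 2. Gss, the synthetase, was the lowest at 8.70 and 8.19 TPM, and Gsr was 11.6 and 16.1 times Gss. In replicate 2, 20.0% of the TPM of Gsr was on Gsr-202, a short transcript without a coding sequence, from 389 counts. It had 0 counts in replicate 1. By CPM Gsr was 1.12 times as high in replicate 2, against 1.31 times by TPM.

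The glutathione transferases join glutathione to electrophiles, and their levels were widely spread. Gstm1 (chr3:108012255-108017973), of the cytosolic mu class, had 457 TPM in replicate 1 and 387 TPM in replicate 2 and was second of the 42 members. Gsto1 (chr19:47854970-47864790), of the omega class, had 142 and 136 TPM, and Gstp1 (chr19:4035407-4037985), of the pi class, had 97.3 and 134 TPM. The membrane-bound Mgst1 and Mgst2 followed at 63.2 and 77.1 TPM and at 60.5 and 57.1 TPM. The remaining 4 were low: Gstm5 had 11.8 and 7.67 TPM, Gstt2 had 7.37 and 9.53 TPM, Mgst3 had 5.63 and 7.43 TPM, and Gsta4, which acts on lipid aldehydes, had 1.20 and 0.95 TPM. Gstm1 was 54.0% of the family's 847 TPM in replicate 1 and 47.4% of its 817 TPM in replicate 2.

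Glutaredoxins use glutathione to reduce mixed disulfides or to carry iron-sulfur clusters, and all 4 lay within a narrow band. Glrx, the cytosolic disulfide reductase, had 74.1 TPM in replicate 1 and 68.1 TPM in replicate 2. Glrx3, a cytosolic iron-sulfur carrier, had 59.5 and 56.1 TPM. Glrx2, known for mitochondria, had 40.3 and 35.4 TPM over all its transcripts, and Glrx5, needed for mitochondrial iron-sulfur clusters, had 32.1 and 43.2 TPM. Glrx was above Glrx3 and Glrx3 above both others in each library, while Glrx2 and Glrx5 changed places. The pentose phosphate enzymes that supply NADPH were both expressed. G6pdx (chrX:74409483-74429194), which takes the first step, had 78.6 and 80.6 TPM, and Pgd (chr4:149149991-149166771), which takes the later NADPH-forming step, had 113 and 106 TPM.

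Nfe2l2, which encodes NRF2, had 43.15 TPM in replicate 1 and 38.5 TPM in replicate 2, and Keap1, its repressor, had 13.75 and 13.85 TPM, so Nfe2l2 was 3.14 and 2.78 times Keap1. Nqo1 (chr8:107388225-107403206), a quinone reductase widely used as a readout of NRF2, had 2.03 TPM from 83 counts in replicate 1 and 0 counts in replicate 2. By CPM it was at least 24.4-fold higher in replicate 1, taking 3 counts as the limit in replicate 2. Nqo1 and Srxn1 are both known targets of NRF2, and both were near the detection limit in at least 1 library, although in opposite libraries. Other known targets among the members were higher in both libraries. Prdx1 had 144 and 122 TPM, Gclm 33.9 and 22.3 TPM, and Txnrd1 26.5 and 27.0 TPM. The activity of NRF2 was not tested.

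**Figure D2:**
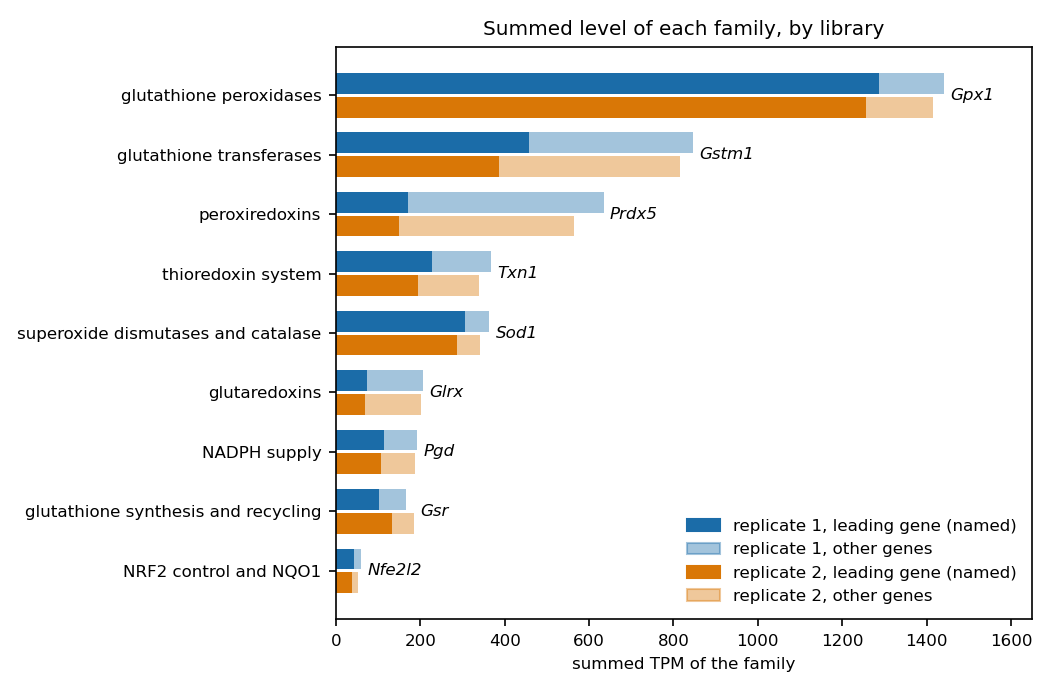
Summed TPM of each family (x axis, from 0) in replicate 1 (blue) and replicate 2 (orange), with the dark part of each bar for the named leading gene. The glutathione peroxidases reach 1442 and 1415 TPM, mostly Gpx1, and the transferases 847 and 817 TPM.

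Ordered by summed TPM, the glutathione peroxidases came highest, the transferases after them and the peroxiredoxins next in both libraries. The thioredoxin system, with 367 TPM in replicate 1 and 340 TPM in replicate 2, and the dismutases with catalase, with 363 and 342 TPM, overlapped. The glutaredoxins summed to 206 and 203 TPM, the NADPH-supply genes to 192 and 186 TPM, glutathione synthesis and recycling to 165 and 185 TPM, and the NRF2 group to 58.9 and 52.4 TPM. Among single members, Gpx1, Gstm1, Sod1, Txn1 and Prdx5 stood in that order, each above the next in both libraries. Their means were 1271 ± 22.6, 422 ± 49.7, 297 ± 13.0, 211 ± 22.7 and 161 ± 15.1 TPM (SD, n = 2). Over the whole order of 42, 26 of the 41 pairs of neighbours overlapped between the libraries and 15 did not, these leading genes included.

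NRF2 with its small MAF partners binds the antioxidant response element, whose core letters are TGACNNNGC. Both strands of the RefSeq promoter windows on GRCm38.p6, from 250 bases before to 50 bases after each annotated start, were searched for these letters. Of the 42 members, 36 matched a window, and Gclc, Gsr, Gsta4, Gstt2, Prdx6 and Sod3 did not. The letters were found for 10 of the 36, or 27.8%, against 14.0% of 27025 genes, and by window in 10 of 48, against 12.4% of 32851. They were Gclm, G6pdx, Gstm5, Mgst1, Nfe2l2, Pgd, Prdx1, Sod1, Srxn1 and Txnrd1, with Pgd and Srxn1 having them after the start. A match is a description of the letters and not a binding site, and the shares were not tested. In Pgd, Gstm5 and G6pdx the start used lay 625, 393 and 314 bases from that of the leading transcript. Gclm, Prdx1 and Txnrd1 are shown, the only members with a match wholly from 160 to 61 bases before the start. They are known NRF2 targets from the ligase, peroxiredoxin and thioredoxin branches and were expressed here. Each line runs 5′ to 3′ from 160 to 61 bases before the start on the plus strand of GRCm38.p6, from RefSeq, with the matching letters in capitals. In all 3 the match lies on the opposite strand, so the capitals are its reverse complement.
Gclm: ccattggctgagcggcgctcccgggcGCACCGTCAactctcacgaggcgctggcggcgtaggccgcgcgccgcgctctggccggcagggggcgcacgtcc
Prdx1: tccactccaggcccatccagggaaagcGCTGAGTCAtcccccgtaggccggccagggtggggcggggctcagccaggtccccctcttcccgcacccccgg
Txnrd1: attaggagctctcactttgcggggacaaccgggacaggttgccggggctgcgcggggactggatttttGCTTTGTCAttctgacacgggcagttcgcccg
The windows are chr3:122245397-122245496 for Gclm, chr4:116685439-116685538 for Prdx1 and chr10:82859046-82859145 for Txnrd1. The match begins 134 bases before the start in Gclm, 133 in Prdx1 and 92 in Txnrd1. Members with the letters ran from 1.43 to 297 mean TPM with a median of 55.5 TPM, and matched members without them from 0 to 1271 mean TPM with a median of 42.7 TPM, so the ranges overlapped widely. Srxn1 was the lowest of the 10 and Sod1 the highest.

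The transcript tables give the percent of each gene's TPM assigned to each transcript. Of the 31 members of 10 TPM or more on average, 11 had 100% on 1 transcript in both libraries. Of these 11, only Cat has more than 1 annotated transcript, so for the others the 100% was fixed by the annotation. Another 10 of the 31 had a leading transcript with under 80% on average. These 10 were Gclm, Glrx2, Gpx1, Gpx4, Mgst1, Mgst2, Prdx1, Prdx2, Prdx5 and Prdx6. The matching shares over all genes were not computed. The leading transcript differed between the libraries in 2 of the 31, Gclm and Gpx1. Transcript types and coding spans below are those of GENCODE M21.

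Gpx1 was divided almost evenly between transcripts that differ at the selenocysteine codon shown above. Gpx1-201, whose coding sequence includes it, held 48.4% in replicate 1 and 52.0% in replicate 2. Gpx1-204, whose annotated coding sequence starts after it, at position 108339481 of chromosome 9, held 51.5% and 46.9%. By counts the longer Gpx1-201 was ahead in both libraries, with 16670 and 15643 counts against 9585 and 7651 on Gpx1-204. An exon of Gpx1-204 covers the codon, so the TGA lies in its annotated leader and not in its coding part. In Gpx4 both main transcripts contain the selenocysteine codon: Gpx4-207 held 76.8% and 58.4%, and Gpx4-202, which has a longer coding sequence of 591 bases against 471, held 20.1% and 39.2%. Txnrd2, at 9.44 TPM on average and so under the limit of 10, had all of its counts on Txnrd2-203 in replicate 1 and none on it in replicate 2. There Txnrd2-212, whose annotated coding sequence ends at the base before the same TGA, held 61.6%, from 351 counts. These transcripts are nearly alike, at 1905 and 1878 bases, and the authors' spread of read allocation in replicate 2 was 46.25 counts on Txnrd2-203 and 47.3 counts on Txnrd2-212.

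**Figure D3:**
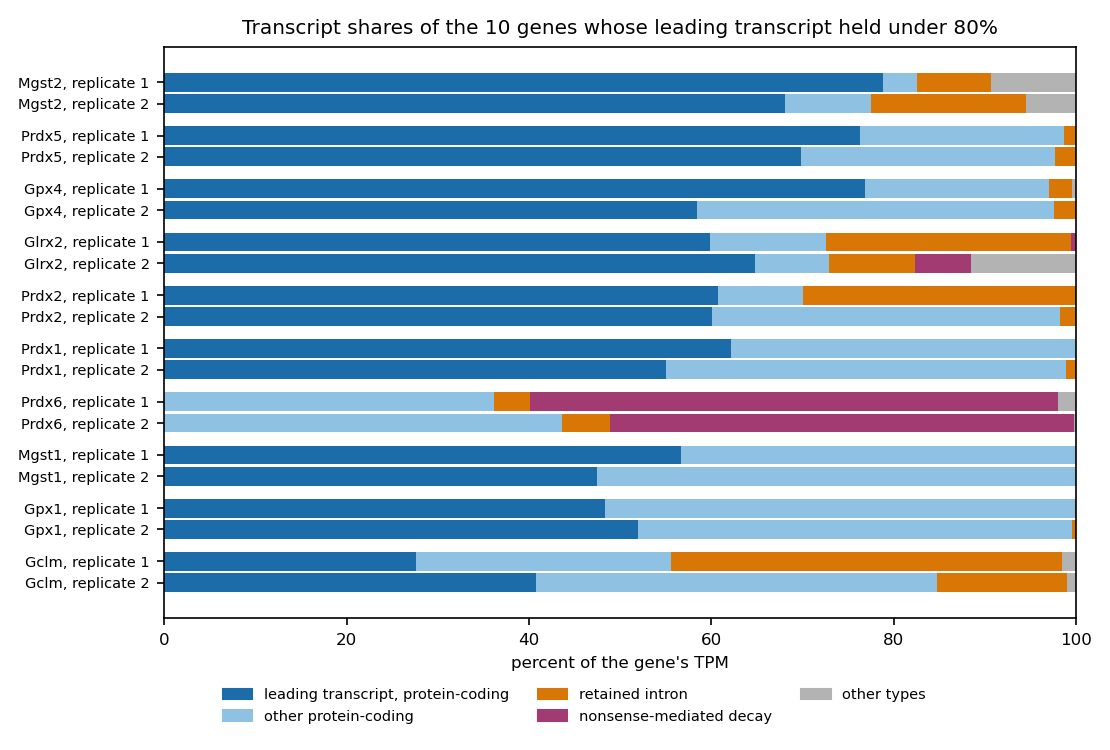
Percent of each gene's TPM (x axis) on its transcripts by annotated type, for the 10 members whose leading transcript held under 80%, with replicate 1 above replicate 2. Prdx6 is led by a transcript annotated for nonsense-mediated decay, and the retained-intron part of Prdx2, Glrx2 and Gclm is larger in replicate 1.

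In several members, transcripts without a full coding sequence took a large part. Prdx6-208, annotated as a target of nonsense-mediated decay, held 57.9% in replicate 1 and 50.9% in replicate 2, above the protein-coding Prdx6-202 with 36.2% and 36.0%. By counts the order was the other way, with 1992 and 1892 counts on Prdx6-208 and 2445 and 2627 on Prdx6-202, which is 2387 bases long against 1294. The retained-intron transcript Prdx2-205 held 29.7% in replicate 1 but only 1.21% in replicate 2, while the coding Prdx2-208 was steady at 60.8% and 60.1%. In Gclm the retained-intron Gclm-205 led replicate 1 with 42.9%, from 131 counts, and held 14.25%, from 25.9 counts, in replicate 2, where the coding Gclm-201 led with 40.8%. The retained-intron Glrx2-212 was likewise higher in replicate 1, at 24.2% against 5.80%, and in Mgst2 the retained-intron Mgst2-205 was higher in replicate 2, at 15.4%, than in replicate 1, at 8.13%. Short transcripts weigh heavily in TPM, and the reads that tell them apart are few: Gclm-205 is 467 bases long and Glrx2-212 is 420.

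The remaining members of the 10 were divided mostly among protein-coding transcripts. Mgst1-207, annotated with a coding sequence of only 153 bases, held 56.7% in replicate 1 and 47.5% in replicate 2, and Mgst1-204, with the coding sequence of 465 bases, held 23.7% and 42.8%. Prdx1-204 held 62.2% and 55.1%, and Prdx1-201 held 25.7% and 28.5%. Prdx5-203 held 76.3% and 69.8%, and Prdx5-201 held 22.4% and 27.8%. Glrx2-202 led Glrx2 with 59.8% and 64.8%, and Mgst2-201 led Mgst2 with 78.8% and 68.1%, so in these 5 genes the same transcript led in both libraries.

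The libraries were compared first for members of 10 TPM or more, with the lower members given after them. None of the 31 members of 10 TPM or more was over 2-fold apart on the log2(TPM + 1) scale, against 3.13% of 6095 protein-coding genes, a share so low that none among 31 is near the background. No gene was tested, since there is 1 group. The log2 ratio of replicate 2 over replicate 1 ran from −0.58 in Gclm to 0.46 in Gstp1, with a median of −0.07, where the median of all 6095 was 0.03. By size without sign the members' median was 0.16 and that of all 6095 was 0.23. Replicate 1 was higher for 19 of the 31, against 45.6% of the 6095. With expected counts scaled by TMM factors, which do not use transcript length, replicate 1 was higher for 21 of the 31, against 52.1% of the 6095, and the median over the 6095 turned to −0.02.

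**Figure D4:**
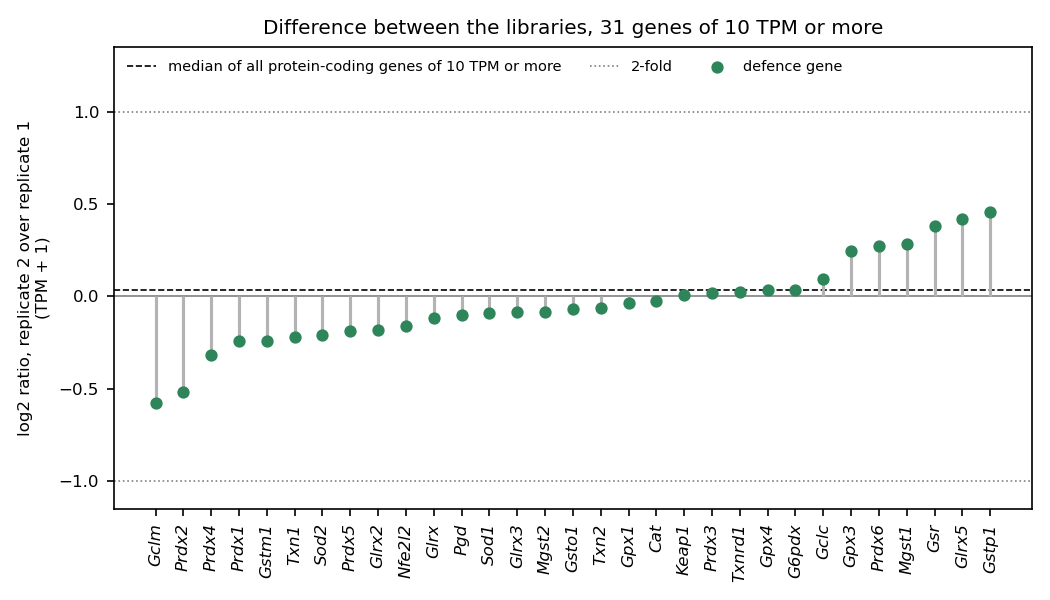
Log2 ratio of replicate 2 over replicate 1 on the TPM + 1 scale (y axis) for the 31 members of 10 TPM or more, sorted, with dotted lines at 2-fold and a dashed line at 0.03, the median of all protein-coding genes of that level. All 31 lie within 2-fold, from −0.58 in Gclm to 0.46 in Gstp1.

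TPM divides by an effective length that follows the transcript shares, so part of some ratios is length. Gclm and Prdx2, the most shifted toward replicate 1 among the 31 members of 10 TPM or more, were almost level in CPM, at 1.08 and 1.07 times in replicate 1 over replicate 2. Their effective lengths in replicate 1 were 0.718 and 0.753 of those in replicate 2. Gstp1 has 1 transcript, and its CPM was 1.40 times as high in replicate 2 (1.32 to 1.50, 95% counting interval). Glrx5, also of 1 transcript, was 1.37 times as high in replicate 2 by CPM. Txnrd2 was 2.02 times as high in replicate 2 by TPM and 1.51 times by CPM (1.31 to 1.76).

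The widest gaps were in members under 10 TPM. Srxn1 was 8.96 times as high in replicate 2 by CPM (5.47 to 15.5, 95% counting interval), and Gpx7 was 0.447 times as high (0.273 to 0.714). Nqo1 was present in replicate 1 alone. Intervals take each read as independent. They cover neither reads copied from 1 molecule nor the spread between pools of 100 cells. Markers of other cells also differed between the libraries. The 8 markers of maturing neutrophils summed to 139 TPM in replicate 1 and 21.1 TPM in replicate 2, of which 4 reached 1 TPM in both and none was at 0 in both. The 8 markers of basophils, eosinophils and mast cells summed to 175 and 85.8 TPM, of which 4 reached 1 TPM in both, with Prg2 and Tpsb2 at 0 in both. The part of these cells in the gaps was not tested. Prdx2 and Cat are also high in red cells, and of 11 erythroid markers only 2 were at 1 TPM or more in both libraries, Gata1 and Car2. The 11 summed to 9.06 TPM in replicate 1 and 7.97 TPM in replicate 2, with Hbb-bs, Alas2 and Slc4a1 at 0 in both. The 7 macrophage markers summed to 7.03 and 8.20 TPM, the 6 megakaryocyte and platelet markers to 10.6 and 8.01 TPM, and the B lymphoid, T and natural killer, and stromal lists each to 0.2 TPM or less.

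Several members overlap an exon of another gene, and since it is not stated whether counting used strand, their reads may be shared. Prdx5 overlaps Trmt112, with 72.5 TPM in replicate 1 and 71.7 TPM in replicate 2, and Prdx2 overlaps Rnaseh2a, at 55.5 and 82.8 TPM, and Junb, at 1.54 and 6.71 TPM. G6pdx overlaps Ikbkg, at 11.3 and 6.32 TPM. Gclm, Gss, Gstm5 and Keap1 also overlap other genes, whose levels were all under 5 TPM. Near-identical copies could also share reads, and the authors' spread of read allocation was over 1 count in 3 members only, Gclm, Gstp1 and Glrx3, with 6.44 counts in Glrx3 the largest. Gstp2, a near copy of Gstp1 named after its values were seen, had 1.91 counts in replicate 1 and 0 in replicate 2.

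A further 96 genes of the same pathways, in 7 lists, are set beside the members. Like the members, they were chosen with earlier results of these data known. Of these, 66 were at 1 TPM or more in both libraries, or 68.8%, against 45.6% of all protein-coding genes. The 45.6% is also the share to set beside each list below. At 10 TPM or more in both there were 41, or 42.7%, against 26.1%. The median of the 96 was 7.80 TPM in replicate 1 and 8.90 TPM in replicate 2. Among 27 other peroxidases and transferases, 9 reached 1 TPM in both, or 33.3%. In this list 11 had 0 counts in both, or 40.7%, near the 42.5% of all protein-coding genes. The highest was Alox5ap, the activating protein of leukotriene synthesis, at 173 and 162 TPM, far above Gstm4, at 10.3 and 14.9 TPM, and Gstz1, at 15.6 and 9.51 TPM. Of 15 thioredoxin-fold and repair genes, 14 reached 1 TPM in both, led by the disulfide isomerases Pdia3, at 170 and 151 TPM, and Pdia6, at 167 and 150 TPM, and by Park7, which encodes DJ-1, at 136 and 158 TPM.

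Of 11 genes of glutathione transport and breakdown, 5 reached 1 TPM in both libraries, or 45.5%, near the 45.6% of all protein-coding genes. Abcc1, an exporter of glutathione conjugates, had 36.0 TPM in replicate 1 and 23.7 in replicate 2, the peptidase Lap3 had 25.9 and 25.4 TPM, and Slc3a2, the shared heavy chain of amino acid transporters, had 20.2 and 16.3 TPM. Slc7a11, the cystine transporter that pairs with Slc3a2 and is a target of NRF2, had 0 counts in replicate 1 and 0.24 TPM in replicate 2. It was named after its values were seen, as were Hmox1, Me1 and Osgin1 among the next list. Of 20 partners and targets of NRF2, 15 reached 1 TPM in both, led by the ferritin chains Ftl1, at 535 and 912 TPM, and Fth1, at 406 and 398 TPM, and by Rbx1, a subunit of the ligase that marks NRF2 for degradation, at 60.8 and 52.0 TPM. Hmox1, heme oxygenase, had 1.15 and 3.48 TPM, Osgin1 had 2.06 and 0.49 TPM, and Me1, an NADPH-forming malic enzyme, had 0 counts in both. Named with their values known, Hmox1, Osgin1 and Me1 do not stand for the 20 genes of the list.

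All 12 other NADPH-forming and pentose phosphate genes reached 1 TPM in both libraries, with Tkt, transketolase, at 166 TPM in replicate 1 and 187 in replicate 2, Taldo1, transaldolase, at 148 and 124 TPM, and Idh2, the mitochondrial isocitrate dehydrogenase, at 124 and 144 TPM. All 7 genes of selenoprotein synthesis did so too, at modest levels: Sephs2, which makes the selenium donor, had 27.7 and 23.8 TPM, its paralogue Sephs1 had 17.9 and 19.4 TPM, and Secisbp2, which binds the selenocysteine element in the message, had 9.36 and 14.8 TPM. The last list has 4 genes and is titled for dismutase cofactors, although Slc25a39 and Slc25a37 in it are mitochondrial carriers with other cargo. Atox1, a copper chaperone, had 78.5 and 108 TPM. Slc25a39, needed for glutathione import into mitochondria, had 47.5 and 78.5 TPM, and Slc25a37, the mitochondrial iron importer, had 25.2 and 29.1 TPM.

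**Figure D5:**
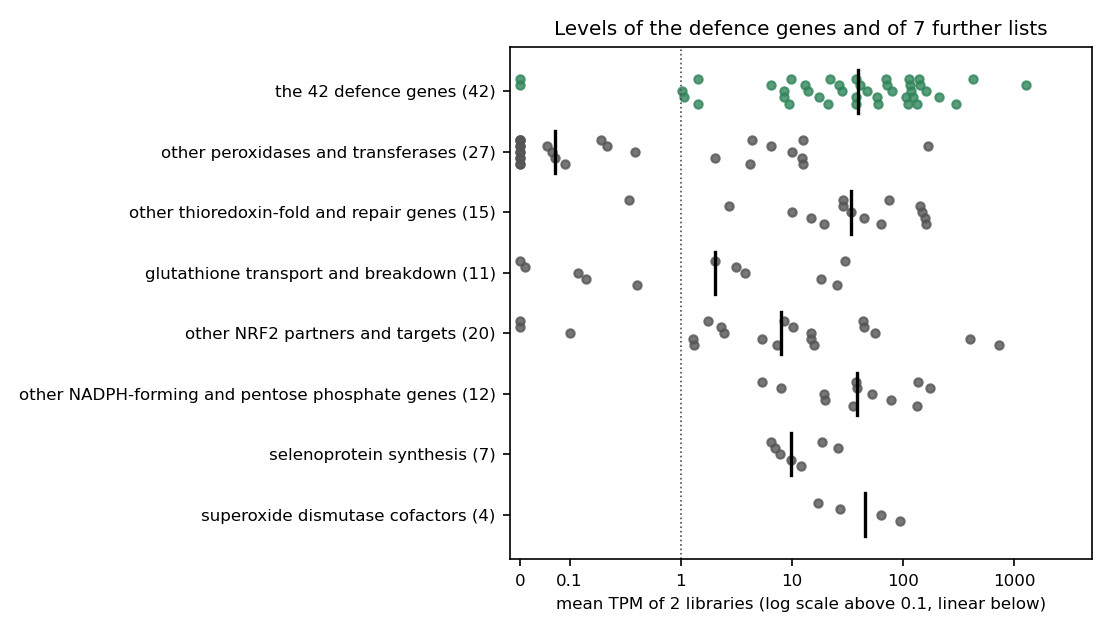
Mean TPM of 2 libraries (x axis, log scale above 0.1 and linear below) for the 42 members (green) and the 7 further lists (grey), with 1 point per gene, a bar at each median and a dotted line at 1 TPM. The other peroxidases and transferases hold 11 genes at 0, or 40.7%, near the 42.5% of all protein-coding genes. All 12 NADPH-forming genes, all 7 selenoprotein-synthesis genes and all 4 genes of the list titled for dismutase cofactors lie above 1 TPM. Of all protein-coding genes, 45.6% were at 1 TPM or more in both libraries.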

How the data were processed

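Expression was read from the deposited gene and transcript tables of 2 total RNA-seq libraries, quantified with annotation M4 on mm10, as the text files beside the tables state. The use of strand is, like the aligner and the quantifier, not given in the sources used here. The expected counts are estimated read counts deposited by the authors and need not be whole. The deposited TPM values are scaled per effective length to 1 fixed total over all rows, spike-ins included, and the deposited FPKM values per effective length and library size. In the deposited transcript tables, percent values are each transcript's share of its gene's TPM. A deposited signal column, the posterior SD of the count, gave the spread of read allocation.

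Genes were matched by Ensembl identifier without version to GENCODE M21, a later release on that assembly. The members and all lists were chosen with earlier results of these data known. All members are named. Of each further list, the 3 genes of highest mean TPM are named, with a few more marked as named after their values were seen. Of transcripts, the members of 10 TPM or more are named whose leading transcript held under 80% or differed between libraries. Levels were taken as detected at 1 TPM or more in both libraries, and ratios as log2(TPM + 1), which understates the ratio of low genes, for genes of 10 TPM or more on average. Protein-coding TPM was 49.3% of all TPM in both libraries. Ratios of CPM, counts scaled to the library total, have exact 95% binomial intervals, and a count of 0 allows 3 counts. No molecular identifiers are named in the labels, so copies of 1 molecule may be counted as separate reads. Intervals and limits take each read as independent and may be too narrow. Counts rounded to whole numbers were scaled in edgeR 4.0.16 (TMM) and DESeq2 1.42.0 under R 4.3.3. An intercept-only edgeR fit gave a median biological coefficient of variation of 0.138 for 36 members of 100 counts or more, a value that follows the trend with level and not the single gene, and no gene was tested. The ratio step was tested on simulated data. Some overlapping genes are not reported here. Other steps used Python 3.11.15, pandas 2.3.3, scipy 1.17.1 and matplotlib 3.10.9.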

Additional observations from a re-analysis of the deposited data

How the results depend on the processing

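The count of detected members ran from 31 at 10 TPM to 39 at 0.1 TPM. The 66 further pathway genes detected became 41 at 10 TPM. The members' median of mean TPM, 39.3, was 69.9 after rescaling without Gm42418, Gm26917, Mir6236, Lars2 and mitochondrial ribosomal RNA, 79.8 when scaled to protein-coding genes alone and 44.2 over members of 1 TPM or more, and it lay between 40.8 and 41.7 with 1 library left out. Rescaling multiplies every level of a library by the same factor, 1.80 in replicate 1 and 1.75 in replicate 2. It brought the share of protein-coding TPM from 0.290% to 0.294% for the glutathione peroxidases and from 0.0414% to 0.0421% for the glutaredoxins. On the log2(TPM + 1) scale, members over 2-fold apart numbered 0 at 10 TPM or more and 2, Nqo1 and Srxn1, at 1 TPM or more. These were 2 of 40 members, against 7.52% of 10278 protein-coding genes, a share near the background. With no filter the same 2 were found. Without the added 1, Gpx7 (2.26 times as high in replicate 1) and Txnrd2 (2.02 times in replicate 2) were also over 2-fold by TPM. The leading transcript differed between libraries in 4 members of 1 TPM or more, against 2 of 10 TPM or more. The remaining 54 alternatives for counts, sums and ratios stayed within 1.5 times or within a spread. That spread was between the libraries for sums and over the members for the median log2 ratio. For family sums, leaving 1 library out or scaling to protein-coding genes alone could give no other outcome. Those alternatives are therefore no test of the sums. No paired analysis was possible because there is 1 group. Members under 2 TPM on average rest on at most 142 counts in a library. The intervals for Srxn1 and Gpx7 left out equal levels, but they take each read as independent.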
